A study of Mus musculus with 56 samples.

Results

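The genes described here are 9 adhesion receptor genes of regulatory T cells (Tregs): the integrin alpha subunits Itgae, Itgal, Itga4, Itga6 and Itgav, the integrin beta subunits Itgb1, Itgb2 and Itgb7, and Cd44. They were chosen by symbol and are 9 of the 55011 gene symbols in the count table. All 9 had counts and entered the tests of each of the 5 fits. Their RNA was followed over 56 bulk RNA-seq libraries in 20 groups.

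Integrins are receptors of 1 alpha and 1 beta subunit that bind other cells or the matrix, and they need activation from inside the cell before they bind firmly. Itgal pairs with Itgb2 to form LFA-1, which binds ICAM proteins and holds T cells on endothelium and antigen-presenting cells. Itga4 pairs with Itgb1 (VLA-4, a receptor for VCAM-1 and fibronectin) or with Itgb7, the dimer that brings lymphocytes to the gut. Itgae, the gene of CD103, pairs with Itgb7 and binds E-cadherin of epithelium. Itga6 with Itgb1 binds laminin, and Itgav pairs with several beta subunits into receptors that bind RGD motifs and can activate latent TGF-beta. Cd44 encodes a hyaluronan receptor whose high level marks antigen-experienced T cells and effector Tregs.

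In the mouse experiment, Tregs positive for the vTreg53 clonotype (a T cell receptor transgene, genotype vTreg53 Tg+, strain C57BL/6) were double-sorted from visceral adipose tissue (VAT) and spleen. Mice 12 weeks old went onto the diet labelled HFD or the diet labelled NCD for 2, 4, 8 or 16 weeks, and week 0 had no diet label. Each tissue, diet and week had 3 libraries, except that VAT HFD week 4, VAT NCD week 16 and spleen NCD week 4 had 2. In the culture experiment, VAT Tregs of PPARgamma-tdT KI/KI mice that also carried Foxp3-GFP KI/y, aged 8 to 10 weeks, expanded by 2 doses of IL-33 and sorted as tdT+, were cultured with IL-2 (2000 U/ml) plus IL-33 (10 ng/ml) over 3 days. Of these cultures, 2 had 50 ng/ml IFNα and 3 had none, and Foxp3/GFP+ cells were sorted from them. The ex vivo cells were selected for 1 clonotype and stand for it and not for all Tregs, and the cultured cells differ from them in mouse line, IL-33 treatment and gate. The labels do not say whether libraries of a group came from separate animals or cultures, so p-values measure the spread between libraries, which may be technical.

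Each library held 1000 cells. Total counts were 3319873 to 6091439 in the 25 VAT libraries, 3248686 to 5826965 in the 26 spleen libraries and 5408696 to 8764390 in the 5 cultures, where 3 counts are worth 0.342 to 0.923 CPM. Spleen libraries carry a tissue label of VAT and were assigned by their titles. Foxp3 stood at 903 to 1145 CPM in VAT, 701 to 911 CPM in spleen and 538 to 1238 CPM in culture, and Pparg, a defining gene of VAT Tregs, at 17.8 to 122 CPM in VAT and 0 to 7.76 CPM in spleen. The summed level of 7 macrophage markers was at most 27.2 CPM in any ex vivo library. Among B cell markers in VAT, Ighm (median 1423 CPM), Cd79b (12 CPM) and Cd79a (1.15 CPM) were at 0 in no library, Ms4a1 was at 0 in 7 of 25, Ebf1 in 18 and Pax5 in 22. Marker levels, summed levels of lists and the levels of Cerkl and Gm13684 are CPM of library totals with no TMM factor. Other levels below are CPM, counts scaled to library size after TMM normalisation over all 56 libraries. A gene is called where edgeR's quasi-likelihood test, adjusted over all genes tested (Benjamini-Hochberg), gives a p under 0.05. Errors of log2 fold changes are standard errors. In bulk libraries fewer cells of a kind and less RNA per cell cannot be told apart.

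In mm10 coordinates of GENCODE M21, Itga6, Itga4, Itgav and Cd44 lie on chromosome 2, Itgal on 7, Itgb1 on 8, Itgb2 on 10, Itgae on 11 and Itgb7 on 15. Exons of 2 members lie partly within the span of a gene on the opposite strand. Of Itga4, 2581 exonic bases lie within the span of Cerkl, and of Itgav, 3698 lie within that of Gm13684. Whether these bases fall in exons or introns of the partner was not checked. No source used here gives the strand setting of the counting, so how far reads of the partner enter the counts of these members is not known. Cerkl had a median of 6.73 CPM in VAT, far below Itga4, which does not bound its reads in the shared bases. Gm13684 had 44.2 to 139 CPM in VAT and 2.65 to 17.6 CPM in spleen.

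Promoter windows of 300 bases are shown for Cd44, Itgav and Itga4, because these 3 members were higher in VAT than in spleen with no overlap of libraries, both with HFD and without it. They come from RefSeq on GRCm38.p6 (mm10), run 5′ to 3′ on the strand of the gene, and end shortly after its start. Cd44 is at chr2:102901616-102901915 on the minus strand, Itgav at chr2:83724147-83724446 and Itga4 at chr2:79255176-79255475, both on the plus strand. Capitals mark matches to the motifs searched.
Cd44: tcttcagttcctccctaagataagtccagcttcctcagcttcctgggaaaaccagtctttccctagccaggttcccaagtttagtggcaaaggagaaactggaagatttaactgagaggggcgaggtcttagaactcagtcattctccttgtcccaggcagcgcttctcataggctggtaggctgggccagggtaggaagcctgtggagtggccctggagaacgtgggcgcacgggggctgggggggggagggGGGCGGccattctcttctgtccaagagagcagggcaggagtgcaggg
Itgav: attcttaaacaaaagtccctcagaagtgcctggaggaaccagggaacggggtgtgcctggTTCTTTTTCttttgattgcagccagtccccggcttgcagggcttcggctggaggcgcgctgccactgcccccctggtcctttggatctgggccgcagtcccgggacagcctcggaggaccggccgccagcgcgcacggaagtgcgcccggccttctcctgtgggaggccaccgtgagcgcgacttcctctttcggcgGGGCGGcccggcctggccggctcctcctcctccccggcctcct
Itga4: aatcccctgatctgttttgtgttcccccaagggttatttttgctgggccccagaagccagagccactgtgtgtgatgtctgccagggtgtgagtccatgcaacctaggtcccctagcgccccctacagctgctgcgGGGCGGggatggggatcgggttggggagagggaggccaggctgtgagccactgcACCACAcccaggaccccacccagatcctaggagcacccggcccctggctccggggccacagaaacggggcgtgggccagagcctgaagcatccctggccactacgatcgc

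Motifs were searched on both strands with overlaps allowed. They were the RUNX motif TGTGGT, the AP-1 motif TGANTCA, the ISRE core GAAANNGAA and the NF-kB motif GGGANNTCC. The GC box was searched as GGGCGG, the TATA box as TATAAA, the E-box as CACGTG and the SMAD palindrome as GTCTAGAC. The box named CCAAT was searched by those letters. A GC box stood in all 3 windows, and 35.7% of the 32851 promoters of this length hold one. Itga4 also had a RUNX match, on the minus strand, which 16.8% of promoters hold. Itgav also had an ISRE match, on the minus strand, and 8.56% of promoters hold one. The letters of the other motifs were not in these 3 windows. The windows held 6 CpG in Cd44, 24 in Itgav and 10 in Itga4. Of the other members, Itgb1 had a GC box and Itgb7 none of the motifs. A match is a description of letters and no binding site.

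Per kilobase of annotated exon, Itgb7 had the highest mean of the 9 RNAs and Itgb2 the next over all VAT, all spleen and all culture libraries. In spleen at week 0, NCD week 2 and NCD week 4 the group mean of Itgb2 was above that of Itgb7. In VAT, CPM per kilobase averaged 706 ± 342 for Itgb7, 264 ± 24.3 for Itgb2 and 199 ± 57.9 for Cd44 (SD, n = 25 each). Then came Itgal at 67.2 ± 4.64, Itga4 at 47 ± 7.01, Itgae at 40.7 ± 15.1, Itgav at 40.3 ± 9.32 and Itgb1 at 27.7 ± 11.5 CPM per kilobase. Itga6 was lowest at 5.54 ± 1.19. The ranges of mean ± SD met for Itgb2 and Cd44 in VAT, and for Itga4, Itgae and Itgav. That of Itgb1 met those of Itgae and Itgav but not that of Itga4.

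In spleen the order below Itgb7 (421 ± 253 CPM per kilobase) and Itgb2 (235 ± 28.9) was different (SD, n = 26 each). Itgal followed at 77.5 ± 7.73 and Itgae at 61.3 ± 29. Cd44 stood next at 38.8 ± 7.56, Itgb1 at 34.3 ± 16.6 and Itga4 at 26.6 ± 4.36, each within the spread of its neighbour. Itga6 had 11.8 ± 2.10 and Itgav, the lowest here, 5.46 ± 1.84 CPM per kilobase. Itgav thus stood above Itga6 and Itgb1 in VAT and below both in spleen. In the 5 cultures Itgb7 averaged 602 ± 327, Itgb2 269.8 ± 60.0, Cd44 52.1 ± 8.23 and Itga6, again the lowest, 2.87 ± 0.517 CPM per kilobase.

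**Figure D1:**
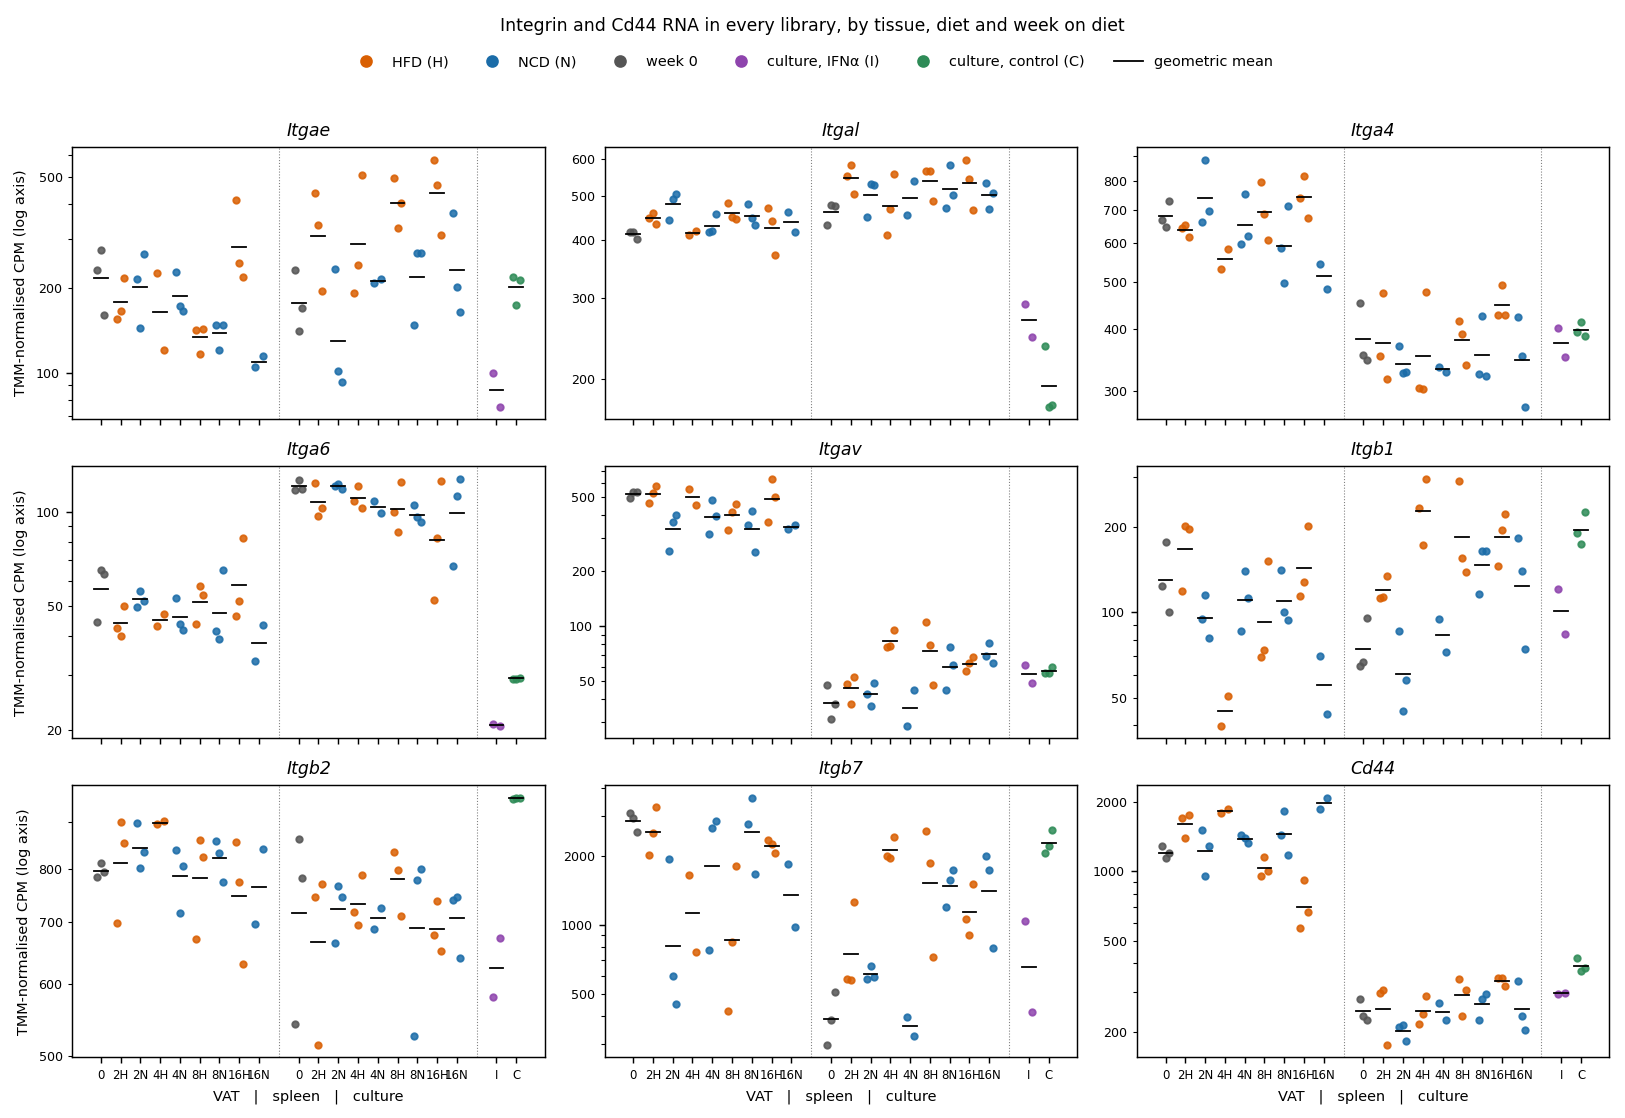
CPM (log axis) of the 9 genes in each of the 56 libraries. Points are libraries, bars geometric means, H is HFD, N is NCD, numbers are weeks on the diet, I is culture with IFNα and C control culture. The mean of each VAT group lies above that of each spleen group for Cd44, Itgav and Itga4, and Itgb7 spreads widely within single groups.

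VAT Tregs were set against spleen Tregs over week 0 and the NCD weeks (n = 14 libraries each), the comparison that leaves out HFD. Of the 9 genes, 5 were higher and 2 lower in VAT, where 59.1% of 15601 genes tested were called in either direction, so a call by itself is common here. Itgav, Cd44 and Itgb7 differed by the most.

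Cd44, the hyaluronan receptor, ranged over 957 to 2093 CPM (median 1363) in VAT without HFD, against 183 to 336 CPM (median 231) in spleen. The lowest VAT library stood above the highest spleen library. Means were 1426 ± 313 CPM in VAT and 244 ± 41.3 CPM in spleen (SD, n = 14 each), a 5.91-fold higher level in VAT (log2 fold change 2.56 ± 0.094, adjusted p = 9.54e-24).

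Itgav, the alpha V subunit, ranged over 254 to 538 CPM (median 382) in VAT and 28.7 to 80.9 CPM (median 46.4) in spleen, with no overlap. It averaged 394 ± 92.8 CPM in VAT and 51.1 ± 16.6 CPM in spleen (SD, n = 14 each), 7.94-fold higher in VAT (log2 fold change 2.99 ± 0.12, adjusted p = 3.24e-23). Gm13684, its antisense partner, was also higher in VAT (log2 fold change 3.63 ± 0.16). How far the partner's reads enter the Itgav count was not tested. The partner's highest level in VAT, 139 CPM with no TMM factor, is below the lowest Itgav level there. TMM factors in VAT were 0.885 to 1.00. The partner's own count does not bound its reads in the shared bases, so these levels do not decide how far they enter.

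Itga4, the alpha chain shared by VLA-4 and the gut-homing dimer, stood at 484 to 886 CPM (median 654) in VAT and 278 to 453 CPM (median 341) in spleen, again without overlap (log2 fold change 0.84 ± 0.075, adjusted p = 3.9e-13). Itga6, the laminin receptor subunit, went the other way. It had 33.3 to 65.2 CPM (median 47) in VAT and 67.3 to 128 CPM (median 115) in spleen, and no VAT library reached the lowest spleen library (log2 fold change -1.18 ± 0.10, adjusted p = 1.7e-13). Of 15601 genes, 6.4% were higher and 4.7% lower in VAT with no overlap of libraries.

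The LFA-1 subunits differed little. Itgal averaged 443 ± 31.5 CPM in VAT and 496 ± 42.2 CPM in spleen (SD, n = 14 each), with overlapping libraries and a log2 fold change of -0.17 ± 0.048, adjusted p = 0.0027. Itgb2 averaged 806 ± 53 CPM in VAT and 715 ± 95 CPM in spleen (log2 fold change 0.17 ± 0.066, adjusted p = 0.0276), a difference within the spread of single libraries. The Itgb2 call was lost without each of spleen week 0 replicate 1, spleen NCD week 4 replicate 1, spleen NCD week 8 replicate 1 and VAT NCD week 16 replicate 3, with adjusted p up to 0.0885.

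Itgb7, the beta chain of the gut and epithelial dimers, was higher in VAT on average, 2059 ± 1030.2 CPM against 914 ± 608 CPM in spleen (SD, n = 14 each; log2 fold change 1.37 ± 0.24, adjusted p = 1.17e-05). Its libraries overlapped widely, with 449 to 3616 CPM (median 2257) in VAT and 299 to 2005 CPM (median 627) in spleen. With a library score that Itgb7 follows (given with the spread between libraries) as a covariate, added after seeing the data, the difference came to 0.008 (adjusted p = 0.961). Since Itgb7 and the score nearly coincide, this fit takes out such a difference by construction and is no test of it. Its usual partner Itgae had 178 ± 55.6 CPM in VAT and 201 ± 73.9 CPM in spleen (log2 fold change -0.24 ± 0.18, adjusted p = 0.247), which did not pass the test. Itgb1, the beta chain of VLA-4 and of the laminin receptor, had 106 ± 33.2 CPM in VAT and 102 ± 44.6 CPM in spleen (log2 fold change 0.049 ± 0.16, adjusted p = 0.815).

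Under HFD the comparison of tissues used other libraries (n = 11 in VAT and 12 in spleen). It called 8 of the 9 genes, 4 higher and 4 lower in VAT, where 47.4% of genes were called. Cd44 averaged 1252 ± 472 CPM in VAT and 285 ± 54.6 CPM in spleen (log2 fold change 2.10 ± 0.1, adjusted p = 5.63e-20). Itgav averaged 483 ± 89.9 CPM in VAT and 67.4 ± 20.2 CPM in spleen (log2 fold change 2.87 ± 0.12, adjusted p = 1.64e-21), and Itga4 668 ± 88.8 and 393 ± 69.5 CPM (log2 fold change 0.73 ± 0.081, adjusted p = 3.8e-10). VAT and spleen libraries did not overlap for these 3 genes, and 4.1% of 15601 genes were higher in VAT with no overlap. Itga6 (-1.03 ± 0.12) and Itgal (-0.27 ± 0.053) were lower in VAT on the log2 scale, as they were without HFD.

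Itgae and Itgb1 were called under HFD and not without it. Itgae had 197 ± 84.7 CPM in VAT and 374 ± 126 CPM in spleen (log2 fold change -0.99 ± 0.20, adjusted p = 7.58e-05), and Itgb1 had 123 ± 60.3 CPM in VAT and 184 ± 64.1 CPM in spleen (log2 fold change -0.80 ± 0.18, adjusted p = 0.000275). The effect of diet did not pass the test of a difference between tissues for either gene, so a different tissue contrast on the diets is not shown for them. VAT minus spleen, the mean diet effect differed by -0.62 ± 0.28 (adjusted p = 0.281) for Itgae and -0.66 ± 0.25 (adjusted p = 0.176) for Itgb1 on the log2 scale. The small Itgb2 difference was called (log2 fold change 0.17 ± 0.072, adjusted p = 0.0483) and lost its call in 15 of 23 fits that left out 1 library. Itgb7 did not pass (0.26 ± 0.26, adjusted p = 0.429).

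**Figure D2:**
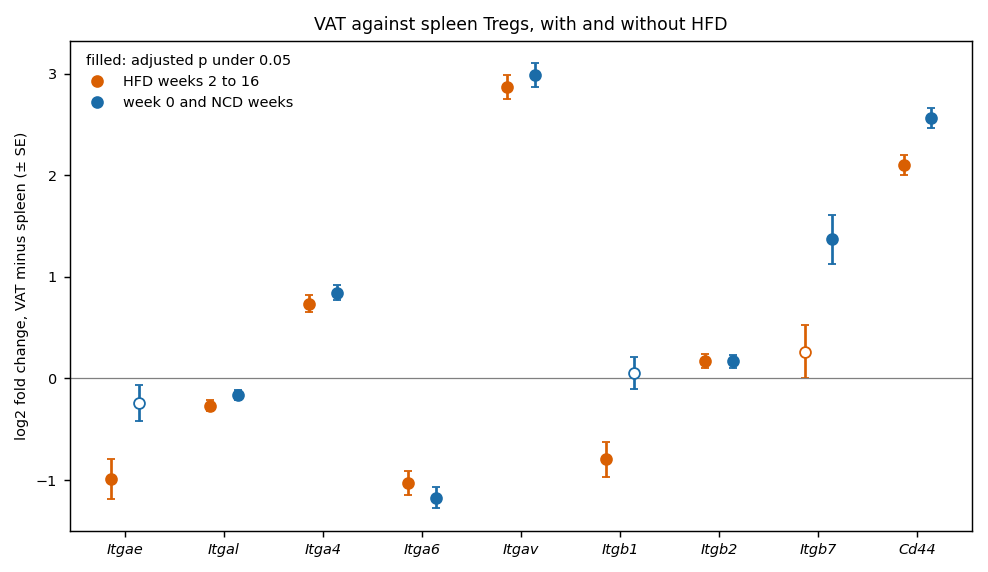
Log2 fold change of VAT over spleen Tregs (y axis, ± SE) for the 9 genes (x axis), with HFD (orange) and without it (blue). Itgav and Cd44 lie above 2 in both comparisons and Itga6 near -1 in both, while Itgae, Itgb1 and Itgb7 change their distance from 0.

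The partners and ligands of these receptors were counted in the comparison without HFD, where 59.1% of all genes were called. Of 19 other integrin subunits, 12 could be tested, with 6 higher and 4 lower in VAT and a median log2 fold change of 0.23, against -0.042 for all genes. The collagen receptor subunits Itga1 (5.88 ± 0.44) and Itga2 (2.18 ± 0.15) rose in VAT on the log2 scale, Itga3, a laminin receptor subunit, rose by 2.37 ± 0.23, and Itga5, the fibronectin receptor subunit, fell (-1.39 ± 0.36). Itga1 averaged 23.5 CPM in VAT and 0.729 CPM in spleen, where 3 counts are worth 0.515 to 0.923 CPM. The size of its fold thus rests on spleen counts near the floor. Itga5 was low in both, at 1.40 CPM in VAT and 3.39 CPM in spleen. Of 37 activation and adaptor genes 32 were tested, with 10 higher and 13 lower (median 0.019). Among them the small GTPase Rap1b (1.32 ± 0.049), the actin cross-linker Flna (0.90 ± 0.049) and vinculin, Vcl (1.93 ± 0.17), were higher, and Actn1 (-4.39 ± 0.28) and the T cell adaptors Fyb (-0.61 ± 0.042) and Skap1 (-0.62 ± 0.047) were lower in VAT. Actn1 averaged 1.70 CPM in VAT, a low level, and 26.9 CPM in spleen.

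Of 19 ligand genes 11 were tested, 6 higher and 2 lower in VAT (median 1.74). Icam1, a ligand of LFA-1, rose by 2.00 ± 0.13 in VAT, the laminin chain Lamc1 by 2.50 ± 0.099, and Icam2 fell (-1.09 ± 0.097). Of 24 selectins, selectin ligands and CD44 partners, 23 were tested, 8 higher and 7 lower (median 0.13). The P-selectin ligand Selplg averaged 1182 CPM in VAT and 755 CPM in spleen (log2 fold change 0.64 ± 0.039), while the tetraspanin Cd9 fell by 3.76. Of 16 genes of TGF-beta activation 13 were tested, 7 higher and 2 lower (median 0.35). Furin, the protease that processes TGF-beta, rose by 2.01 ± 0.11, and Lrrc32, which holds latent TGF-beta on Tregs, fell (-2.12 ± 0.14). Beside these, 19 of 20 genes of the immediate early and heat shock list were higher in VAT, where their summed level was 12310 to 36231 CPM, against 2094 to 3001 CPM in spleen. Their part in the tissue differences of the members was not tested.

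Diet was compared within each tissue and week. In VAT, 0 of the 9 genes were called at week 2, 0 at week 4 and 0 at week 8, where 0.0565%, 0.0212% and 1.33% of 14164 genes were called. At an unadjusted p under 0.05 they numbered 4, 2 and 2, and DESeq2 called 0 at each of these weeks. At week 16, 4 were called, 3 higher and 1 lower with HFD, beside 9.24% of genes. Cd44 was lower, and Itgae, Itga4 and Itgb1 were higher.

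At week 16 Cd44 had 569.9, 916 and 664 CPM in the 3 HFD libraries, against 1874 and 2093 CPM in the 2 NCD libraries. The highest HFD library was under the lowest NCD library by a wide margin. At this week 18.4% of 14105 genes had every HFD library below every NCD library. The log2 fold change was -1.46 ± 0.18, adjusted p = 1.7e-05, a 2.75-fold lower level with HFD. The call held without any 1 library, with log2 fold changes of -1.69 to -1.32. At the earlier weeks Cd44 differed in the other direction or by less, with 1714, 1391 and 1755 CPM (HFD) and 1508, 957 and 1284 CPM (NCD) at week 2, and 1794 and 1858 CPM (HFD) and 1447, 1393 and 1332 CPM (NCD) at week 4. At week 8 it had 951, 1157 and 1008 CPM with HFD and 1440.3, 1825 and 1177 CPM with NCD, groups that did not overlap but did not pass the test (log2 fold change -0.52 ± 0.17, adjusted p = 0.132). At that week 8.76% of genes had every HFD library below every NCD library. Without NCD week 8 replicate 3 it passed (adjusted p = 0.0453).

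Itgae, the CD103 gene, had 413, 246 and 219 CPM in HFD libraries and 105 and 114 CPM in NCD libraries of VAT at week 16 (log2 fold change 1.43 ± 0.31, adjusted p = 0.0054). All 3 HFD libraries stood above both NCD libraries, and 1 HFD library was far above the others. Itga4 had 739, 822 and 674 CPM with HFD and 543 and 484 CPM with NCD (log2 fold change 0.54 ± 0.14, adjusted p = 0.0135). Itgb1, its partner in VLA-4, had 114, 128 and 202 CPM with HFD and 70.4 and 43.8 CPM with NCD (log2 fold change 1.37 ± 0.38, adjusted p = 0.028). Neither gene's groups overlapped, and 18.5% of 14105 genes had every HFD library above every NCD library. All 3 calls were lost without either NCD library. Without NCD replicate 2 the adjusted p was 0.0916 for Itgae, 0.0539 for Itga4 and 0.0667 for Itgb1, and without NCD replicate 3 it was 0.0657, 0.199 and 0.284, under the assumption that the lone library left varies as much as other groups do. Itga4 was also lost without HFD replicate 2 (adjusted p = 0.0599) and Itgb1 without HFD replicate 3 (adjusted p = 0.106). With only the 2 groups compared in the fit the adjusted p of Itga4 was 0.0555, and with no filter on low counts that of Itgb1 was 0.0861.

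The other members did not pass at week 16. Itgav had 368, 633 and 504 CPM with HFD and 336 and 355 CPM with NCD (log2 fold change 0.55 ± 0.23, adjusted p = 0.164), Itga6 46.5, 51.8 and 82.8 CPM and 33.3 and 43.6 CPM (0.66 ± 0.24, adjusted p = 0.0956, and 0.0433 without HFD replicate 1), and Itgb7 2364, 2253 and 2077 CPM and 1853 and 980.4 CPM (0.66 ± 0.68, adjusted p = 0.65). For these 3 genes every HFD library was above both NCD libraries, as it was for 18.5% of 14105 genes. The LFA-1 subunits lay close to 0, with -0.033 ± 0.1 for Itgal and -0.021 ± 0.13 for Itgb2 on the log2 scale. In the same groups 13 of 20 immediate early and heat shock genes fell with HFD (median log2 fold change -1.34), and their summed level was 12310 to 24140 CPM with HFD and 35520 to 36231 CPM with NCD. With the mean of these genes as a covariate, chosen after seeing the data, 0 of the 4 calls stayed, at log2 fold changes of -1.01 for Cd44 (adjusted p = 0.234), 0.68 for Itgae (0.686), 0.76 for Itga4 (0.246) and 2.38 for Itgb1 (0.191), with adjusted p in parentheses. This covariate was 0.632 to 1.61 in the HFD libraries and 2.58 to 2.62 in the NCD libraries, so it nearly follows diet here. A lost call in this fit is thus no test, and Itga4 and Itgb1 had larger log2 fold changes in it. The summed B cell markers, mostly Ighm, were 1639 to 2450 CPM with HFD and 320 to 333 CPM with NCD. The sum of 6 VAT Treg markers was 3117 to 4984 CPM with HFD and 7672 to 8432 CPM with NCD, none at 0, and among them Pparg fell (log2 fold change -1.86 ± 0.35). The part of these genes in the result was not tested.

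The HFD effect at week 16 also differed from the mean effect of weeks 2, 4 and 8 in VAT. It did so for the same 4 genes, beside 7.12% of genes called in that test. The difference of effects was 1.56 ± 0.35 (adjusted p = 0.00924) for Itgae, 0.63 ± 0.16 (adjusted p = 0.0159) for Itga4 and 1.60 ± 0.43 (adjusted p = 0.0298) for Itgb1 on the log2 scale, each a larger HFD effect at week 16. For Cd44 it was -1.54 ± 0.21 (adjusted p = 7.74e-05), a lower one. The Cd44 call held in every fit without 1 library. Itgae, Itga4 and Itgb1 lost theirs without either NCD week 16 library (adjusted p of 0.0512 to 0.241), Itga4 also without HFD week 16 replicate 2 (0.0509), and Itgb1 without HFD week 4 replicate 2 (0.0578) or HFD week 16 replicate 3 (0.0926).

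Averaged over the 4 weeks with equal weight, HFD moved 1 of the 9 genes in VAT, beside 4.2% of genes. Itgav was higher with HFD, 483 ± 89.9 CPM against 359 ± 68.2 CPM with NCD (SD, n = 11 each; log2 fold change 0.43 ± 0.11, adjusted p = 0.0248). Its weekly log2 fold changes were 0.61 ± 0.21 at week 2, 0.36 ± 0.23 at week 4, 0.23 ± 0.20 at week 8 and 0.55 ± 0.23 at week 16, all higher with HFD. At week 2 the libraries had 467, 531 and 575 CPM with HFD and 256, 366 and 404 CPM with NCD, without overlap. At that week 7.71% of 14105 genes had every HFD library above every NCD library. The call was lost without NCD week 16 replicate 2 (adjusted p = 0.0797) or 3 (0.0648) and without HFD week 4 replicate 2 (0.0913). Gm13684, antisense to it, was higher with HFD too (log2 fold change 0.55 ± 0.12, adjusted p = 0.00788).

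Cd44 missed the threshold in that mean (-0.30 ± 0.088, adjusted p = 0.0516), and leaving out any of VAT NCD week 2 replicate 2, NCD week 8 replicate 3, HFD week 8 replicate 2 and HFD week 16 replicate 2 brought it under (adjusted p of 0.0074 to 0.0454). Itgb1 changed sign between weeks, with log2 fold changes of 0.83 ± 0.33 at week 2, -1.30 ± 0.40 at week 4, -0.19 ± 0.33 at week 8 and 1.37 ± 0.38 at week 16. Its HFD libraries at week 4 had 39.8 and 50.6 CPM, against 85.6, 139.9 and 113 CPM with NCD. Itgb7 did likewise, at 1.37 ± 0.61, -0.79 ± 0.69, -1.40 ± 0.61 and 0.66 ± 0.68 over the 4 weeks. Of these weekly values of the 2 genes only Itgb1 at week 16 passed the test.

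**Figure D3:**
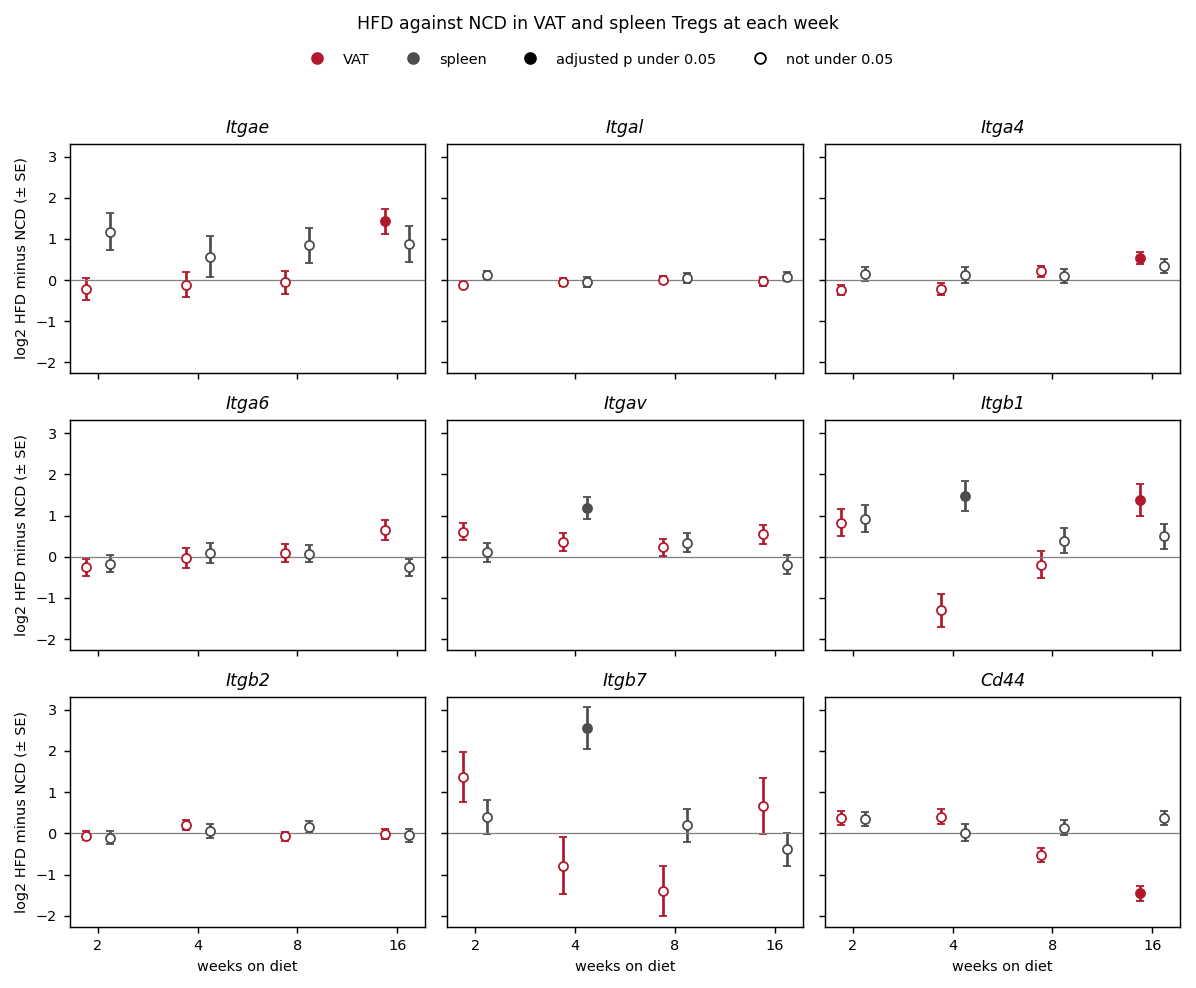
Log2 fold change of HFD over NCD (y axis, ± SE) at each week on the diet (x axis) in VAT (red) and spleen (grey) for the 9 genes. In VAT Cd44 moves from above 0 at weeks 2 and 4 to -1.46 at week 16, and the filled points in spleen stand at week 4.

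Related genes at week 16 in VAT gave the following counts, where 9.24% of all genes were called. Among 11 other integrin subunits tested, 2 rose with HFD and 3 fell. Itgb8, a partner of alpha V that activates TGF-beta, rose by 1.05 ± 0.19, and the collagen receptor subunits Itga1 (-2.35 ± 0.41) and Itga2 (-1.06 ± 0.21) and Itgb3, another partner of alpha V (-0.71 ± 0.19), fell. Of 32 activation and adaptor genes 3 rose and 4 fell, among them Flna, which fell to 502 CPM with HFD, against 956 CPM with NCD (-0.92 ± 0.11), and Vcl (-1.28 ± 0.30). Of 9 ligand genes 1 fell, Lamc1 (-0.71 ± 0.20). Of 21 selectin and CD44 partner genes 4 rose and 3 fell. The tetraspanin Cd81 rose by 1.03 ± 0.17, while Selplg (-0.58 ± 0.095) and the linkers of CD44 to actin, Ezr (-0.81 ± 0.14) and Msn (-0.45 ± 0.11), fell. Of 13 TGF-beta genes 2 rose, with Lrrc32 at 187 CPM with HFD and 13.9 CPM with NCD (3.75 ± 0.45), and Furin fell (-1.29 ± 0.22). List medians were between -0.081 and 0.52, against 0.024 for all genes.

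In the mean over weeks in VAT, where 4.2% of all genes were called, 1 of 11 other subunits rose and 1 fell, Itgb8 (0.63 ± 0.09) and Itga1 (-1.09 ± 0.19). Of 32 activation genes 3 rose, the adaptors Fyb (0.23 ± 0.055) and Skap1 (0.23 ± 0.058) and Cytip (0.20 ± 0.055), and 1 fell, Flna (-0.28 ± 0.054). Of 9 ligand genes 0 were called and 0 had an unadjusted p under 0.05 in edgeR (median 0.082). Of 21 selectin and CD44 partner genes 3 rose and 1 fell, with Cd81 at 0.43 ± 0.08 and Ezr at -0.27 ± 0.065. Of 13 TGF-beta genes 3 rose, with Lrrc32 at 1.21 ± 0.19 and Skil, a feedback inhibitor of TGF-beta signals, at 0.33 ± 0.072.

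In spleen, HFD called 0 of the 9 genes at week 2, 3 at week 4, 0 at week 8 and 0 at week 16. Of 14686 genes tested, 0.0272%, 1.24%, 0% and 0% were called at these weeks. At week 8, 716 genes and at week 16 975 genes had an unadjusted p under 0.05, and DESeq2 called 1 and 21 genes and 0 members. Of the 9 members 2, 0 and 2 had an unadjusted p under 0.05 at weeks 2, 8 and 16, and DESeq2 called 0 of them at week 2.

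At week 4 in spleen Itgb7 had 2004, 1962 and 2431 CPM with HFD, against 396 and 327 CPM with NCD (log2 fold change 2.56 ± 0.50, adjusted p = 0.0131). Itgb1 had 233, 173 and 296 CPM with HFD and 94.6 and 72.7 CPM with NCD (log2 fold change 1.48 ± 0.37, adjusted p = 0.049), and Itgav 77.2, 77.9 and 94.9 CPM with HFD and 28.7 and 44.9 CPM with NCD (log2 fold change 1.17 ± 0.27, adjusted p = 0.018). The groups did not overlap for any of the 3, and 13.7% of 14686 genes had every HFD library above every NCD library. All 3 calls were lost without either NCD library, with adjusted p of 0.065 and 0.423 for Itgb7, 0.108 and 0.744 for Itgb1 and 0.185 and 0.154 for Itgav without NCD replicate 1 and 2. Without HFD replicate 3, Itgb1 (0.185) and Itgav (0.0836) missed the threshold, and without HFD replicate 1 Itgb1 did (0.0985).

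Over the 4 weeks in spleen, 1 of the 9 genes was called, beside 0.933% of genes. Itgb1 was higher with HFD, 184 ± 64.1 CPM (SD, n = 12) against 109 ± 47.6 CPM with NCD (SD, n = 11), and all 4 weeks had the same sign (log2 fold change 0.82 ± 0.16, adjusted p = 0.0258). The call was lost without NCD week 4 replicate 2 (adjusted p = 0.0936), NCD week 8 replicate 1 (0.0553) or HFD week 4 replicate 3 (0.0529), and without week 4 altogether it was 0.60 (adjusted p = 0.146). Itgae averaged 374 ± 126 CPM with HFD and 206 ± 80.6 CPM with NCD and did not pass (log2 fold change 0.86 ± 0.23, adjusted p = 0.0824). Its weekly values were 1.18 ± 0.44, 0.57 ± 0.49, 0.84 ± 0.44 and 0.87 ± 0.44 at weeks 2, 4, 8 and 16. Without NCD week 2 replicate 1 or NCD week 16 replicate 1 it passed, with adjusted p of 0.0341 and 0.038. Without HFD week 8 replicate 3, Itgav (adjusted p = 0.0438) and Itgb7 (0.0348) passed too. Cd44 had a mean log2 fold change of 0.22 ± 0.092 (adjusted p = 0.268) in spleen, and the LFA-1 subunits stood at 0.05 ± 0.058 (Itgal) and 0.011 ± 0.079 (Itgb2).

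The effect of HFD was compared between VAT and spleen in the fit of both tissues. Cd44 alone among the 9 genes passed, in the mean over weeks, where 2.44% of genes were called, and at week 16, where 4.46% were called. At week 16 the difference of effects, VAT minus spleen, was -1.86 ± 0.28, adjusted p = 3.28e-05 on the log2 scale. Spleen Cd44 at that week was 345, 343 and 319 CPM with HFD and 336, 236 and 204 CPM with NCD, so the 2 tissues had opposite signs. In the same test 8 of 20 genes on the immediate early and heat shock list were lower (median -1.37), and their part in the result was not tested. In the mean the difference was -0.53 ± 0.14, adjusted p = 0.0303. Without week 16 it was -0.089 (adjusted p = 0.909), and it also missed the threshold in 8 of 45 fits without 1 library, with log2 values of -0.59 to -0.49. For the other 8 genes the tissues' diet effects did not pass the test, for example Itgb1 at week 16 (0.85 ± 0.51, adjusted p = 0.421). Itga6 at week 16 (0.88 ± 0.33, adjusted p = 0.136) passed without spleen NCD replicate 1 (adjusted p = 0.0358) or spleen HFD replicate 3 (0.0159).

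Time on diet was followed within each tissue. Mice of later weeks were also older, and week 0 had no diet label, so time on diet, age and diet label cannot be told apart in these comparisons. In VAT, NCD week 16 against week 0 called 0 of the 9 genes (0.713% of all genes), with 6 at an unadjusted p under 0.05 and 3 by DESeq2. Cd44 had 1874 and 2093 CPM at NCD week 16 and 1287, 1141 and 1199 CPM at week 0 (log2 fold change 0.71 ± 0.18, adjusted p = 0.0682), with no overlap. Of 14105 genes, 17.6% were higher at NCD week 16 with no overlap. Itgae, Itga4, Itga6, Itgav, Itgb1 and Itgb7 were each lower in both NCD week 16 libraries than in all 3 week 0 libraries, as were 18.3% of 14105 genes. Itgav, for instance, had 336 and 355 CPM at NCD week 16 and 499, 536 and 538 CPM at week 0 (log2 fold change -0.61 ± 0.23, adjusted p = 0.246). HFD week 16 against HFD week 2 called Cd44 alone (7.3% of all genes), at 569.9, 916 and 664 CPM at week 16 and 1714, 1391 and 1755 CPM at week 2 (log2 fold change -1.16 ± 0.17, adjusted p = 0.000148). This comparison shares its HFD week 16 libraries with the diet comparison. In the same test 9 of 20 genes on the immediate early and heat shock list were lower (median -0.96). With their mean as a covariate Cd44 was at -0.82 (adjusted p = 0.194), and their part in the result was not tested. That mean was 0.632 to 1.61 at HFD week 16 and 2.20 to 2.27 at HFD week 2. It nearly follows the groups, so a lost call in this fit is no test.

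In spleen, NCD week 16 against week 0 called Itgb7 alone (0.654% of all genes), with 2005, 1742 and 794 CPM at NCD week 16 and 299, 383 and 509 CPM at week 0 (log2 fold change 1.93 ± 0.42, adjusted p = 0.0412). The call was lost without any 1 of the 3 week 0 libraries and without NCD week 16 replicate 1 or 2, with adjusted p of 0.0537 to 0.218. HFD week 16 against HFD week 2 called 0 members and 0% of genes, with 1108 genes at an unadjusted p under 0.05 and 24 genes and 0 members by DESeq2, and 1 members under that unadjusted p. Cd44 had 345, 343 and 319 CPM at week 16 and 295, 306 and 177 CPM at week 2 there (log2 fold change 0.37 ± 0.18, adjusted p = 0.66).

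In the cultures IFNα, a type I interferon, called 5 of the 9 genes, 1 higher and 4 lower, beside 21.7% of 12604 genes. Itgae had 99.6 and 75.5 CPM in the 2 IFNα cultures, against 219.9, 175 and 214 CPM in the 3 control cultures (log2 fold change -1.18 ± 0.14, adjusted p = 6.36e-05). Itgb1 had 121 and 83.7 CPM with IFNα and 190.0, 175 and 225 CPM in control (log2 fold change -0.90 ± 0.18, adjusted p = 0.00956). Both genes were lower in each IFNα culture than in each control culture, as were 26.1% of 12422 genes. Foxp3 itself fell with IFNα (log2 fold change -1.11 ± 0.073). Itgb1 lost its call without control replicate 1 (adjusted p = 0.0695).

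The LFA-1 subunits moved apart. Itgb2 had 580.1 and 672 CPM with IFNα and 953, 957 and 955 CPM in control (log2 fold change -0.57 ± 0.076, adjusted p = 1.39e-05), while Itgal had 291 and 247 CPM with IFNα and 236, 174 and 176 CPM in control (log2 fold change 0.50 ± 0.15, adjusted p = 0.0354). The Itgal call was lost without control replicate 2 (adjusted p = 0.0984), control replicate 3 (0.0912) or IFNα replicate 1 (0.189). Cd44 was lower with IFNα, 294 and 297 CPM against 423, 368 and 382 CPM in control (log2 fold change -0.36 ± 0.087, adjusted p = 0.00498).

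Itgb7 had 1041 and 415 CPM with IFNα and 2072, 2208 and 2601 CPM in control, a wide gap between groups that missed the threshold in edgeR (log2 fold change -1.61 ± 0.53, adjusted p = 0.154). It passed in DESeq2 (adjusted p = 0.00928) and in fits that left out 1 of the IFNα cultures, which assume that the lone culture varies like the controls. Itga6 had 20.9 and 20.6 CPM with IFNα and 29.3, 29.2 and 29.3 CPM in control (-0.45 ± 0.17, adjusted p = 0.0689). Itga4 (-0.037 ± 0.084) and Itgav (-0.0038 ± 0.14) had log2 fold changes near 0 and overlapping cultures.

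Of the partner genes tested in culture, where 21.7% of all genes were called, 1 of 9 other integrin subunits rose with IFNα, Itgb3 (0.57 ± 0.10), and 4 fell, among them Itgb5 (-0.99 ± 0.23) and Itga3 (-1.02 ± 0.26). Of 31 activation genes 2 rose and 7 fell, with Sipa1l1, which inactivates Rap GTPases, up by 0.97 ± 0.11 and Rasgrp2, which activates them, down (-0.82 ± 0.20). Of 9 ligand genes 4 rose and 0 fell (median 0.64, against 0.01 for all genes), with fibronectin, Fn1 (1.35 ± 0.25), and Icam2 (0.64 ± 0.12). Of 20 selectin and CD44 partner genes 3 rose, Cd47, Cd82 and Rdx, and 2 fell, Hmmr and St3gal4. Of 14 TGF-beta genes 3 rose and 2 fell, with Lrrc32 at 654 CPM with IFNα and 416 CPM in control (0.70 ± 0.091).

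Control cultures were set against week 0 VAT Tregs, which differ from them in mouse line, IL-33 treatment, gate and culture at once, so that these cannot be told apart. All 5 called genes were lower in culture, beside 49.5% of genes called. Itgav had 55.8, 55.3 and 60.1 CPM in culture and 499, 536 and 538 CPM at VAT week 0 (log2 fold change -3.25 ± 0.22, adjusted p = 6.06e-12), and Cd44 423, 368 and 382 CPM in culture and 1287, 1141 and 1199 CPM at VAT week 0 (log2 fold change -1.68 ± 0.16, adjusted p = 2.54e-09). The cultured Itgav level lay inside the spleen range, and the cultured Cd44 level lay between the spleen and VAT ranges. Itgal (-1.13 ± 0.11), Itga4 (-0.83 ± 0.12) and Itga6 (-1.03 ± 0.20) were lower on the log2 scale too. Of the same 20 immediate early and heat shock genes, 17 were lower and 1 higher in culture. Their part in the result was not tested.

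**Figure D4:**
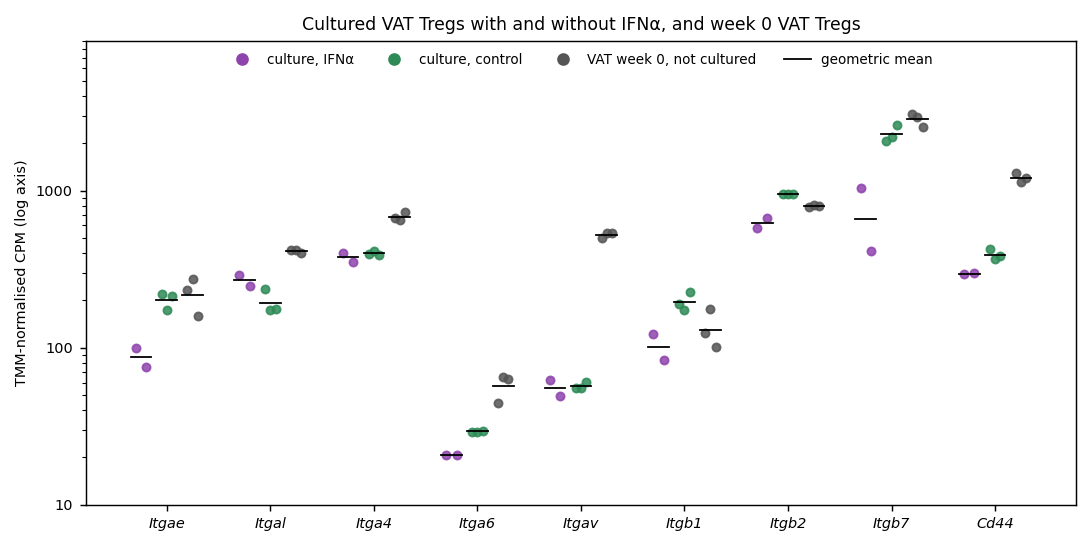
CPM (log axis) of the 9 genes (x axis) in cultures with IFNα, control cultures and VAT Tregs of week 0. Points are libraries and bars geometric means. Itgae, Itgb1, Itgb2, Itgb7 and Cd44 lie lower with IFNα than in control, and Itgav and Cd44 lie lower in both cultures than at VAT week 0.

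The members differed widely in how far libraries of 1 group spread. The pooled within-group SD of log2(CPM + 1) for Itgb7 was 0.748 in VAT, larger than that of 99.8% of 4361 genes over 50 CPM, whose median was 0.182. In spleen it was 0.517. Itgb1 (0.410 and 0.415) and Itgae (0.351 and 0.537 in VAT and spleen) were also among the genes of large spread. Itgal was steady, with 0.0883 in VAT, below all but 1.65% of genes, and Itgb2 had 0.145. Single groups show the Itgb7 spread directly, as in VAT NCD week 2 with 1955, 599 and 449 CPM and VAT HFD week 8 with 422, 842 and 1810.0 CPM.

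Itgb7 followed an axis that many genes share between libraries. A score was formed as the mean log2 CPM of the 173 genes, members left out, that HFD raised in week 4 spleen. Pearson's r of Itgb7 with this score was 0.988 over 25 VAT libraries and 0.978 over 26 spleen libraries. Itgav (0.438 in VAT and 0.834 in spleen) and Itgb1 (0.588 and 0.776) followed it less closely, and the other members lay between -0.402 and 0.307. The libraries of a tissue share diets, weeks and depth differences, and the spleen week 4 libraries chose the score genes, so these values describe the libraries. Of 7804 genes compared, 57 had r over 0.9 with Itgb7 in VAT and 55 in spleen, 35 of them in both, which is 61.4% of the VAT list and 63.6% of the spleen list.

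Cd44 was alone in following the 20 immediate early and heat shock genes in VAT, with r = 0.829 over 25 libraries. Itgae (-0.555), Itga4 (-0.511) and Itga6 (-0.455) had negative values there. In spleen, where those genes were far lower, r for Cd44 was 0.473 over 26 libraries. The 3 lowest Cd44 levels in VAT and the 2 lowest scores there belonged to HFD week 16 libraries.

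**Figure D5:**
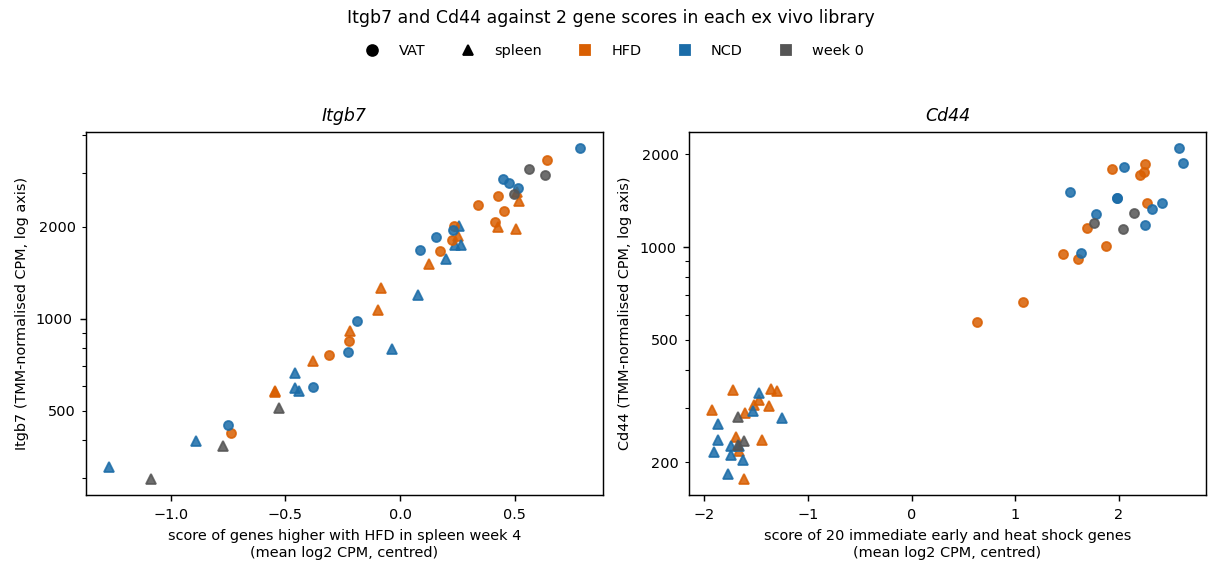
Left, Itgb7 (CPM, log axis) against the score of genes that HFD raised in week 4 spleen. Right, Cd44 (CPM, log axis) against the score of immediate early and heat shock genes, with circles for VAT and triangles for spleen libraries. Itgb7 rises along 1 line in both tissues (r of 0.988 and 0.978), and Cd44 rises with its score within VAT (r of 0.829).

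Among pairs of members, correlations over libraries are given as a description, since the libraries share groups and depth. In spleen Itgae and Cd44 had r = 0.828 over 26 libraries and 0.786 after group means were removed. Itgb1 and Itgb7 had 0.827 and 0.704, and Itgav and Itgb7 0.864 and 0.549, in the same order. Itga4 went with Itgae (0.649 and 0.687) and Cd44 (0.712 and 0.67) there. In VAT the signs with Cd44 were the other way, with r = -0.702 for Itga4 and -0.503 for Itgae over 25 libraries, and -0.46 and -0.0694 within groups. Subunits that can form a dimer varied in how closely they went together. Itgav and Itgb1 had r = 0.341 in VAT and 0.772 in spleen, and Itga4 and Itgb1 0.351 and 0.383. Itga6 and Itgb1 had 0.294 and -0.376. Itgal and Itgb2 had r = 0.172 in VAT and 0.228 in spleen, Itgae and Itgb7 0.202 and 0.378, and Itga4 and Itgb7 -0.22 and 0.109.

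The genes most like each member over the 25 VAT libraries, by Pearson's r of log2 CPM among 7488 genes, were closest for Itgb7 (Yipf4 0.967, Eif3f 0.967 and Peli1 0.966) and for Cd44 (Cmtm6 0.932, Lmna 0.931 and Il9r 0.93). Itga4 was nearest to Rabgap1l (0.857), Vav3 (0.815) and Ighm (0.796), and Itgav to Nfil3 (0.796), Ifrd1 (0.794) and Traf4 (0.756). Itgb1 was nearest to Gltp (0.775), Sh2b3 (0.768) and Abtb2 (0.758), and Itgae to Zmiz2 (0.752), Il18r1 (0.738) and Slc16a3 (0.734). Itgb2 was nearest to Acadl (0.747), Actr2 (0.731) and Tln1 (0.709), and Itga6 to Ankrd11 (0.745), Trim59 (0.685) and Ccdc125 (0.679). Itgal, the steadiest member, had no gene over Sepsecs (0.635), followed by Prpf31 (0.623) and Tamm41 (0.615).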

How the data were processed

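RNA of sorted mouse Tregs was measured by Smart-seq in 56 libraries. The authors deposited raw counts per gene symbol in 1 table, made with STAR 2.7.3a and featureCounts on mm10 per the submitters' processing notes. Strand setting, annotation and treatment of multi-mapping reads were not given in the sources used here. The 18 amplification cycles per the labels' protocols carry no molecular identifiers, so floors of 3 counts cover counting error only. Group means were fitted with edgeR 4.0.16 in R 4.3.3, using robust quasi-likelihood, TMM factors and the filterByExpr filter. The 5 fits covered both tissues, VAT, spleen, culture, and VAT with culture, for 21 comparisons. Benjamini-Hochberg adjustment ran over all genes tested. Mean diet effects weight the weeks equally. Lengths per kilobase came from GENCODE M21 exon unions, which matched 96.4% of the symbols. Alternatives were DESeq2 1.42.0, RLE normalisation, no filter, only the groups compared, a replicate block, weeks left out, each library left out and 2 covariates added after seeing the data. The fits were also run on simulated counts whose spread was independent between genes. Many genes share an axis between these libraries, so that run is no check of the calls given here. The members and gene lists were chosen with earlier results of these data known. List genes are named by a rule: the 3 of smallest p in each direction among those called in 4 comparisons.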

Additional observations from a re-analysis of the deposited data

Results flagged for a closer look

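For Cd44 the effect of HFD differed between VAT and spleen, by a test of the difference itself. VAT minus spleen was -0.53 on the log2 scale in the mean over weeks and -1.86 at week 16. Of all genes, 2.44% were called in the first test and 4.46% in the second. Without week 16 the mean for Cd44 was -0.089 and was not called.

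In VAT the HFD effect at week 16 differed from the mean effect of the earlier weeks for 4 genes, again by a test of the difference. On the log2 scale the difference was 1.56 for Itgae, 0.63 for Itga4, 1.60 for Itgb1 and -1.54 for Cd44. Of all genes, 7.12% were called in this test. As given above, the calls of Itgae, Itga4 and Itgb1 were lost without either NCD week 16 library, and that of Cd44 held.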

How the results depend on the processing

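Counts of members called are given first as reported and then under each alternative that moved them by over 1.5 times. The share of all genes called under each alternative is not given here, so these shifts are not shown to be particular to the members. Calls gained with no filter can come at an almost unchanged effect. Itgb7 in the mean diet effect, VAT minus spleen, was at -0.736 as reported and not called. With no filter it was at -0.726 (adjusted p = 8.18e-21 in edgeR). For the diet effect in VAT minus spleen, the mean had 1 and then 0 without week 16, 4 with no filter and 0 to 1 without 1 library. At week 16 it had 1, then 5 with no filter and 1 to 2 without 1 library. For HFD in VAT, week 2 had 0 and 1 with no filter, week 4 had 0 and 1 with only the groups compared, and week 8 had 0, 1 with no filter and 0 to 1 without 1 library. Week 16 had 4, 0 with the immediate early and heat shock covariate, and 1 to 5 without 1 library. The VAT mean had 1, then 0 without week 16, 0 to 2 without 1 library, and 2 with DESeq2, without week 4, with no filter or with the spleen week 4 covariate. Week 16 minus the earlier weeks had 4, 0 with the immediate early covariate and 1 to 4 without 1 library. For HFD in spleen, week 4 had 3 and 0 to 3 without 1 library. The spleen mean had 1, 3 with DESeq2, 0 without week 4, 2 with no filter and 0 to 3 without 1 library. NCD week 16 against week 0 had 0 in VAT, then 1 with the spleen week 4 covariate, 3 with DESeq2, 2 with no filter and 5 with only the groups compared. In spleen it had 1, 2 with DESeq2 or no filter, 0 with only the groups compared and 0 to 1 without 1 library. HFD week 16 against week 2 in VAT had 1, 0 with the immediate early covariate and 2 with DESeq2. Culture against VAT week 0 had 5, and 8 with only the groups compared. VAT against spleen had 7 without HFD (6 to 7 without 1 library) and 8 with HFD (7 to 8), and IFNα had 5 (4 to 6). The cause of these shifts was not tested. In VAT against spleen without HFD, Itgb1 was at 0.049 as reported, with no call. With the spleen week 4 covariate it was at -0.45 (adjusted p = 0.0322 in edgeR). This score was added after seeing the data, and Itgb1 follows it in part (r of 0.588 in VAT and 0.776 in spleen). The changed sign of Itgb1 in that fit is thus no test of a tissue difference.

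With weeks pooled, not every pair of same-numbered libraries correlated over 0.1 for diet, for tissue or for culture, so the numbers were not taken to pair the samples. Deviations of same-numbered libraries correlated over 0.1 in 1 of 10 pairs for diet in VAT, 3 of 11 in spleen, 4 of 24 between tissues and 1 of 2 in culture. The 3 pairs of VAT and spleen HFD week 16 were all over 0.1, with r of 0.403, 0.151 and 0.393. The 2 pairs at NCD week 16 had 0.0765 and 0.062. With the replicate block the count was 2 for the diet effect in VAT minus spleen at week 16, 0 for HFD in spleen at week 4 and 0 for NCD week 16 against week 0 in spleen. The gain in VAT minus spleen was Itga6 (1.15, adjusted p = 0.0091 in edgeR). With the block the spleen mean of HFD lost Itgb1 (adjusted p = 0.15) and gained Itgae (0.0158). HFD at week 16 in VAT lost Itgb1 (0.101) and gained Itga6 (0.0433) and Itgav (0.0294).

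Groups of 2 or 3 libraries limit the diet comparisons, and calls at week 16 in VAT and week 4 in spleen each rest on 2 NCD libraries. Of the values of single genes, 3139 kept their direction and side of the threshold, 98 lost a call and 56 gained one. Another 144 changed sign with a call in neither fit, and 1 changed sign with a call.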
